A study of Mus musculus with 24 samples.

Results

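Oxidative phosphorylation genes were followed in cultured mouse liver endothelial cells with silenced or overexpressed P16Ink4a. The members were the protein-coding genes whose symbols begin with Nduf, Uqcr, Cox4 to Cox8, Atp5 or mt-, together with Sdha to Sdhd. This rule used no measured value and gave 110 of the 56748 genes of the table. Of these, 97 lie in the nucleus and 13 in the mitochondrial genome. The nuclear ones include 38 for complex I subunits and 8 for complex I assembly factors. Complexes II, III, IV and V have 4, 8, 21 and 18 nuclear members. The mitochondrial ones are 7, 1, 3 and 2 for complexes I, III, IV and V. Complex IV here includes Ndufa4, Ndufa4l2, the supercomplex factor Cox7a2l and Cox5b-ps, a row with a pseudogene symbol.

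The cells were Cd31+ cells, a general endothelial population, and Cd146+ cells, sinusoidal endothelial cells, purified with antibody-coated magnetic beads from livers of C57BL/6 mice. The study's methods describe the animals as 3-month-old females. All cells were cultured and transduced with a lentivirus, and RNA was taken 1 week later. P16 shRNA, a hairpin against P16Ink4a, and nc shRNA, a non-coding hairpin, were carried by the vector pLKO.1. P16, a fusion of P16Ink4a with GFP, and the empty vector without the insert were carried by pLenti-C-mGFP-P2A-Puro. Each of the 8 combinations had 3 libraries, so the control cells too were infected, and each control shares its vector only with its own construct. Nothing in the sources says whether libraries came from separate animals, so p-values measure the spread between libraries. This spread may be technical, except that sex-linked transcripts, given below, differed within most groups.

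Oxidative phosphorylation passes electrons from NADH (complex I) and succinate (complex II) over complexes III and IV to oxygen, and complex V makes ATP from the resulting proton gradient. The mitochondrial genome encodes the hydrophobic core of complexes I, III, IV and V, and the nucleus encodes all other subunits, complex II entirely, and the assembly factors. Mitochondrial transcripts are cut from long precursors that are copied from both strands of a circular genome, whereas each nuclear subunit has its own promoter.

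Between 15409800 and 26470400 reads were counted per library. Cdkn2a, the gene of P16Ink4a, was at 56.7 ± 19.9 CPM (counts scaled to a common library size, SD, n = 3) with nc shRNA and 6.67 ± 2.22 with P16 shRNA in Cd31+ cells, and at 139 ± 52.1 and 14.9 ± 9.49 in Cd146+ cells. With the empty vector and with P16 it was at 56.7 ± 23.7 and 229.9 ± 96.7 CPM in Cd31+ cells and at 91.9 ± 19.4 and 498 ± 308 in Cd146+ cells, and in each pair the libraries did not overlap. Several libraries stood apart from their labels. Transcripts of the Y-linked gene Ddx3y exceeded 1 CPM in 16 of 24 libraries (52.0 to 170.5 CPM), and Xist, the transcript of the inactive X chromosome, in the other 8. Only Cd31+ cells with nc shRNA or P16 shRNA had Ddx3y in all 3 libraries. Each other group held both kinds of library, which came from different animals. The 12 endothelial markers summed to 286 to 2209 CPM and the 9 mesenchymal ones to 6604 to 51039 CPM. Stab2, a defining gene of sinusoidal cells, stayed under 1 CPM in all 24. In the 3 Cd146+ libraries numbered 3, Pecam1 (the gene of Cd31) was at 4.05 to 10.1 CPM against 61.5 to 281 elsewhere. Cdh5, Tek, Mcam, Erg, Emcn and Vwf also lay below all other libraries there. The endothelial marker Eng (284 to 293 CPM against 62.5 to 703) and Stab2 lay within the range of the others, and Kdr, Tie1 and Lyve1 overlapped it. The Cd146+ library with empty vector numbered 4 held 460.4 CPM of the collagen gene Col1a1, the lowest of all. The parts of these features in the values that follow were not tested, apart from the fits without these libraries and with a term for Y-linked transcripts that are given where they changed a count.

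The 13 mt- genes took 0.996 to 2.21% of the counted reads and the 97 nuclear genes 0.609 to 1.24%, so that every library held more mt- than nuclear reads. The libraries had been made from poly(A) RNA, and how far each mitochondrial transcript is captured in this way is not given. In Cd31+ cells the mt- share was 2.21, 1.33 and 1.57% in the libraries numbered 1, 2 and 3 with nc shRNA and 1.64, 1.31 and 1.496% in those with P16 shRNA. The nuclear share moved the other way, from 0.609, 0.697 and 0.697% to 0.774, 0.751 and 0.769%. All 3 libraries with P16 shRNA thus had a larger nuclear share than any with nc shRNA, while the mt- shares overlapped. In the second contrast of these cells, the nuclear share was 0.704, 0.674 and 0.765% with the empty vector (numbers 1, 2 and 5) and 0.959, 0.716 and 0.790% with P16 (numbers 2, 3 and 5), and both shares overlapped.

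In Cd146+ cells the nuclear share was 0.737, 0.844 and 0.857% with nc shRNA (numbers 1, 3 and 5) and 0.922, 0.927 and 1.24% with P16 shRNA (numbers 3, 5 and 6), again without overlap, and library 6 was the highest of all 24. The mt- share overlapped, with 1.94, 1.19 and 1.23% and 0.996, 1.39 and 1.35%. With the empty vector and with P16, the nuclear share was 0.793 ± 0.0394% and 0.840 ± 0.0992% (SD, n = 3 each), and the mt- share 1.30 ± 0.160% and 1.40 ± 0.315%, both with overlap.

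**Figure D1:**
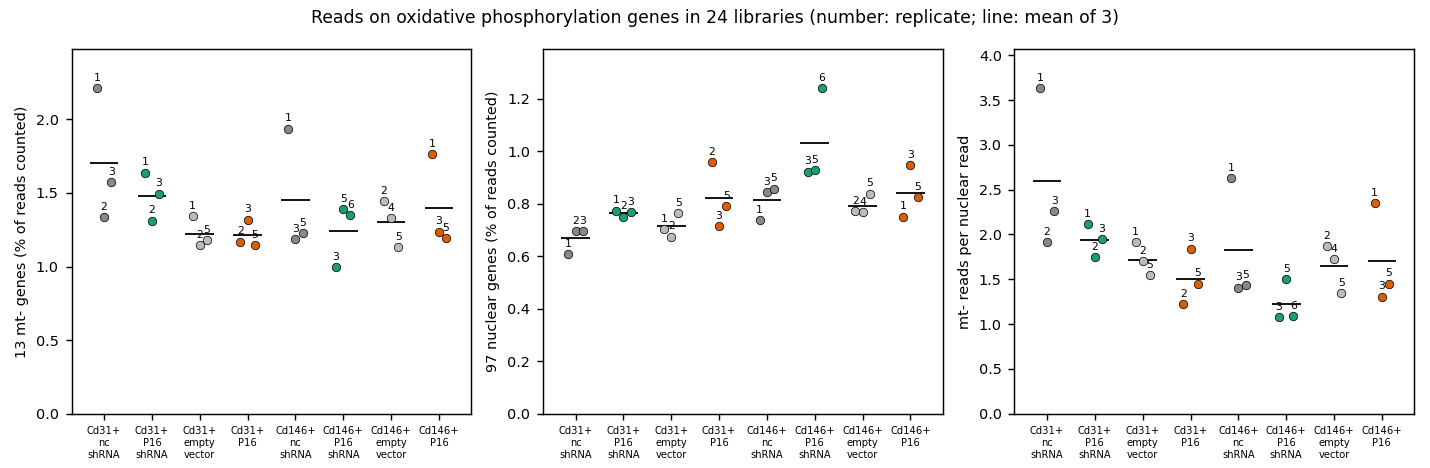
Share of counted reads on the 13 mt- genes (left) and the 97 nuclear genes (middle), in percent, and the number of mt- reads per nuclear read (right), for 24 libraries in 8 groups. Points are libraries with their replicate number and lines are group means. Libraries numbered 1 have the highest mt- share of their group wherever a group holds one, and nuclear shares with P16 shRNA lie above those with nc shRNA in both populations.

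Per nuclear read there were 3.63, 1.91 and 2.26 mt- reads with nc shRNA and 2.12, 1.75 and 1.95 with P16 shRNA in Cd31+ cells. The log2 of this ratio was 1.32 ± 0.48 and 0.95 ± 0.14. It was 0.78 ± 0.15 with the empty vector and 0.57 ± 0.30 with P16. In Cd146+ cells it was 0.80 ± 0.51 with nc shRNA and 0.27 ± 0.27 with P16 shRNA, and 0.71 ± 0.25 and 0.72 ± 0.45 with the empty vector and P16 (SD, n = 3 throughout). Each of these pairs overlapped. In RNA of a whole culture, fewer cells of a type and less RNA per cell cannot be told apart. The libraries numbered 1 had the highest ratio in all 5 groups that hold one. Between libraries of the same number, the log2 ratio was lower with P16 shRNA in 3 of 3 pairs of Cd31+ cells and in 1 of 2 pairs of Cd146+ cells, and lower with P16 in 2 of 2 pairs of Cd31+ cells and 0 of 1 pair of Cd146+ cells. No test was made on the ratio.

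The 13 mt- genes fell into a high and a low set by level. Per kilobase of gene, mt-Co1, the catalytic subunit of cytochrome c oxidase, had a median of 3576 CPM over the 24 libraries, mt-Cytb, the core of complex III, 2012 and mt-Nd1, a membrane subunit of complex I, 1569.7. The complex I subunits mt-Nd6, mt-Nd2, mt-Nd5 and mt-Nd4 lay between 659 and 869 CPM per kilobase. These 7 were the highest of all 110 members. The other 6 were far lower, with 55.1 CPM per kilobase for mt-Co2, 33.4 for mt-Nd3, 29.5 for mt-Co3, 27.1 for mt-Atp6, 13.7 for mt-Nd4l and 0.867 for mt-Atp8, the last from a median of 3 counts. They are neighbours on the mitochondrial genome, from the start of mt-Co2 at 7013 to the end of mt-Nd4l at 10173 (GRCm38, plus strand), between mt-Co1 (5328 to 6872) and mt-Nd4 (10167 to 11544).

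Of these 6 genes, 5 have an annotated copy of the same sequence on chromosome 1, and the copies are shown because reads from the gene and its copy cannot be told apart. In the GENCODE M21 transcripts, 681 of the 684 bases of mt-Co2 were identical to the pseudogene Gm28661, with 0 differences. The same held for 678 of 681 bases of mt-Atp6 (Gm10925), 783 of 784 of mt-Co3 (Gm28437), 342 of 348 of mt-Nd3 (Gm28438) and 294 of 297 of mt-Nd4l (Gm10222). The first 60 bases of 2 of these pairs, read 5′ to 3′, are the following.
mt-Co2: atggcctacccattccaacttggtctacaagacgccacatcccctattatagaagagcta
Gm28661: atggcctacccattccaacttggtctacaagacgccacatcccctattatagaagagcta
mt-Co3: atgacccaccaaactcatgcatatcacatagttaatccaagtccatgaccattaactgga
Gm28437: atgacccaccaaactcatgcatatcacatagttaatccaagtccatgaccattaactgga
At the edges of the stretch, mt-Nd4 shared 876 of 1378 bases with Gm28439, and mt-Co1 aligned with Gm29216 over 483 of 1545. Of its runs of 50 bases, mt-Co1 shared 51.1% with 3 other annotated genes. For mt-Nd2 and mt-Nd5 the share was 8.19% and 7.61%, and for mt-Nd1, mt-Nd6 and mt-Cytb it was 0. The mt- genes outside the stretch are thus not all free of shared sequence. mt-Atp8 shared no run of 50 bases with another annotated transcript. How the authors' counting treated reads with several equally good positions is not given in the sources used here.

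The summed counts of the 6 genes and of the copies were low in the same libraries. The libraries were divided at 50 CPM of the summed copies, so the separation of the copies largely follows from this division. In 10 libraries the 5 copies summed to 21.5 to 43.5 CPM and the 6 genes to 33.6 to 64.4 CPM. In the other 14 the copies summed to 61.4 to 129.8 and the genes to 83.3 to 164 CPM. The share of all genes that separate between these libraries is not given here. Taken singly, mt-Atp6 and the copies Gm28661, Gm10925 and Gm28437 did not overlap between these libraries and the other genes and copies did, mt-Co2 narrowly (8.45 to 22.2 and 22.1 to 77.2 CPM) and mt-Nd3 over nearly its whole range (7.05 to 15.3 and 0.825 to 16.8 CPM). The 7 other mt- genes together overlapped between these libraries, at 10009 to 19922 and 11170.5 to 22993 CPM. The 10 libraries were all 3 of Cd31+ cells with P16, all 6 of Cd146+ cells with nc shRNA or P16 shRNA, and number 5 of Cd146+ cells with the empty vector. The split therefore coincides with the construct in 1 of the 4 contrasts, P16 against empty vector in Cd31+ cells, where the copies were at 71.2, 65.1 and 80.0 CPM with the empty vector and 31.6, 43.5 and 22.2 with P16.

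**Figure D2:**
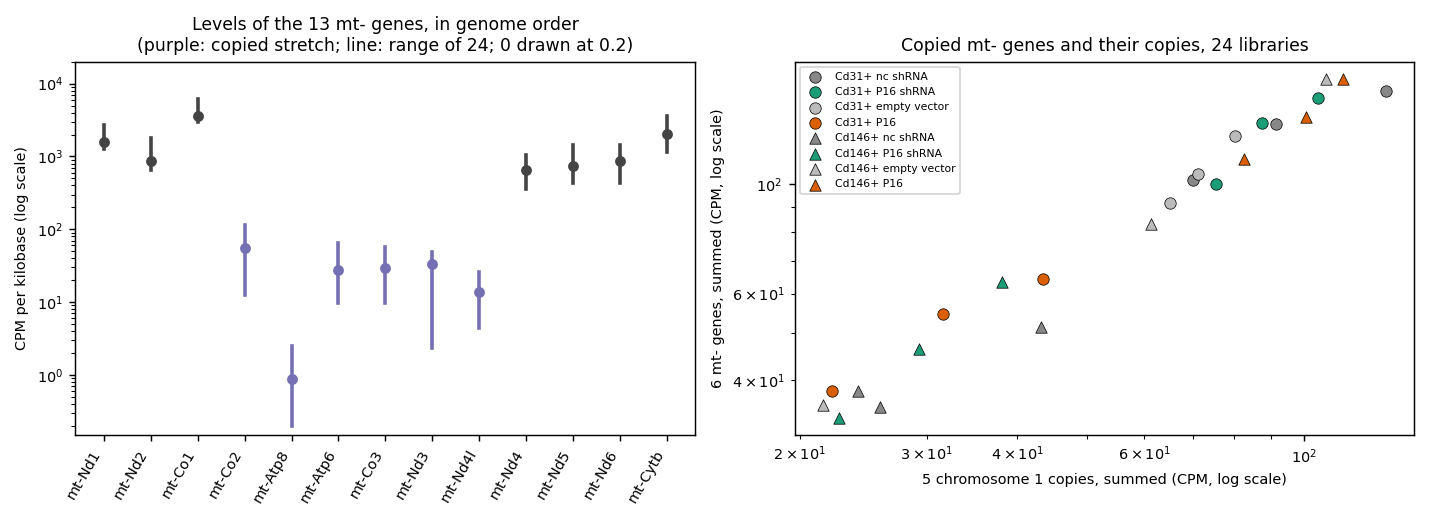
Left, CPM per kilobase (log scale) of the 13 mt- genes in genome order, with the median (point) and range (line) of 24 libraries. Purple marks the 6 genes from mt-Co2 to mt-Nd4l, all of which lie below the other 7. A value of 0, found for mt-Atp8 in 1 library, is drawn at 0.2. Right, summed CPM of these 6 genes against that of the 5 chromosome 1 copies (both log scale), 1 point per library. Both sums are low in the same 10 libraries, which were set by a copy sum under 50 CPM.

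Neighbouring mt- genes also overlap each other, mt-Atp8 and mt-Atp6 at 7927 to 7969 and mt-Nd4l and mt-Nd4 at 10167 to 10173. mt-Nd6 (13552 to 14070) is the 1 member on the minus strand and meets mt-Nd5 (11742 to 13565) end to end, and since the sources do not say whether the libraries kept the strand, reads of mt-Nd6 and of the opposite strand cannot be told apart. Nearly all mt- reads came from the 7 genes outside the stretch, and the mt- values below are given with and without the 6 others where they differ.

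The nuclear members spanned a wide range. Their median level was 31.8 CPM per kilobase against 869 for the 7 mt- genes outside the stretch. Complex III had the highest median level of the nuclear groups (60.8 CPM per kilobase, from 31.5 for Uqcrc1, a core subunit, to 108 for Uqcr10, a small one). Complex V followed with 41.7, led by Atp5b, the catalytic beta subunit, at 241. Complex II had 38.7, from the iron-sulfur subunit Sdhb (25.2) to the membrane anchor Sdhd (69.6). Complex IV had 31.5, with Cox6a1 at 353, the highest nuclear member. Complex I had 29.4, with the accessory subunit Ndufa2 highest at 121. The 8 assembly factors, which act on complex I without remaining in it, were lowest at 4.96, from Ndufaf6 (3.18) to Ndufaf8 (14.8). No test was made between these levels, and they include the counting losses of members that share sequence with other genes.

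Isoforms known from muscle, testis or other tissues had medians at or near 0, and their ubiquitous partners carried the reads. Cox7b2 had reads in 1 library, Cox8c in 1 and Cox8b in 4 of 24, none above 5 counts, and Ndufb11b and the Atp5o row ENSMUSG00000116933 had a median of 0. Cox6a2 reached a median of 2.16 CPM per kilobase against 353 for Cox6a1, Cox6b2 1.39 against 158 for Cox6b1, Cox7a1 0.515 against 77.1 for Cox7a2, and the hypoxia-linked isoform Cox4i2 0.256 against 167 for Cox4i1. Ndufa4l2, a further hypoxia-linked isoform with a median of 0.393 and with Ndufa4 (77.4 CPM per kilobase) as its partner, differed between libraries. It was at 0, 0.443 and 6.73 CPM in Cd31+ cells with the empty vector (numbers 1, 2 and 5) and at 0.164, 0.0417 and 4.48 in Cd146+ cells with nc shRNA (numbers 1, 3 and 5). Each of the 6 libraries numbered 5 held 4.18 CPM or more of it, as did Cd146+ cells with P16 shRNA in library 6. Such a spread was not particular to Ndufa4l2. It took 0 to 0.0918% of the reads of the nuclear members, and Cox6b2 took 0.000468 to 0.0904%.

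At the 5′ end of their genes the nuclear members shared a short motif more often than genes at large. RefSeq promoter windows (GRCm38.p6, 250 bases before to 50 after each start) were matched for 77 of the 97 nuclear members, with 82 windows. The letters CGCNTGCGC on either strand, known as a binding sequence of nuclear respiratory factor 1 (NRF1), stood in 28.0% of them and in 6.24% of all 32817 windows. CCGGAAGT, a sequence of the ETS factor GABPA, stood in 6.10% and 3.89%, and AAGATGGCG, a sequence of YY1, in 9.76% and 1.40%. The 3 sequences do not contain each other. A match is a run of letters and not a measured site. The windows of 3 members that recur below are shown, with matches to any of the 3 sequences in capitals.
Ndufb4 (chr16:37654319-37654618, minus strand): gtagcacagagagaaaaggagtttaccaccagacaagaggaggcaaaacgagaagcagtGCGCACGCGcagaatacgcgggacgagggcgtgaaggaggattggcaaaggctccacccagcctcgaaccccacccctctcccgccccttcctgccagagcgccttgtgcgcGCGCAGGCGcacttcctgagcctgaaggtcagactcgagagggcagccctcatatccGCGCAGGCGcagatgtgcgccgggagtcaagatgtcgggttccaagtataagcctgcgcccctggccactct
Ndufa11 (chr17:56717512-56717811, plus strand): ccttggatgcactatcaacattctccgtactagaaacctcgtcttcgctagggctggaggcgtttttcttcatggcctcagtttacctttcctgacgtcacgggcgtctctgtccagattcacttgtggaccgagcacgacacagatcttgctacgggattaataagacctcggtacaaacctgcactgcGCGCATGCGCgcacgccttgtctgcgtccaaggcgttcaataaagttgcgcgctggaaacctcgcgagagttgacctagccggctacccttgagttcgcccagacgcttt
Cox6a1 (chr5:115348909-115349208, minus strand): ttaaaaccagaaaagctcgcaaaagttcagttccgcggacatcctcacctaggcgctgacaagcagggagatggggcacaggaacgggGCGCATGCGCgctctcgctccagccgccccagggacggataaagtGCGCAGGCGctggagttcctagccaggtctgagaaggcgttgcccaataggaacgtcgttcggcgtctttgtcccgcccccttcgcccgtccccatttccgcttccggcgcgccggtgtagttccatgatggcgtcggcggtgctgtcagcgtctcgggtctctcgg

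With P16 shRNA in Cd31+ cells, nuclear members leaned upward and mt- genes did not. Of 89 nuclear members tested, 75 had a positive log2 fold change, with a median of 0.20 against 0.00 over all genes. At an unadjusted p under 0.05 (edgeR's quasi-likelihood test, two-sided), 11 were higher, beside 9.51% of all genes, and 2 were lower, beside 10.3%. None reached an adjusted p under 0.05, a level reached by 1.3% of all genes, and with DESeq2 1 did, Sdhc. In 29 members all 3 libraries with P16 shRNA lay above all 3 with nc shRNA, as in 13.8% of all genes. The 12 endothelial markers summed to 499.7 to 992 CPM with nc shRNA and 286 to 583 with P16 shRNA, and the 9 mesenchymal ones to 20193 to 37769 and 24094 to 51039. Their part in the result was not tested.

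Among the 11 were 6 subunits of complex I. Ndufb4, an accessory subunit of its membrane arm, was at 23.5, 29.9 and 31.6 CPM with nc shRNA and 39.9, 36.5 and 38.8 with P16 shRNA (log2 fold change 0.44 ± 0.13 (SE), adjusted p = 0.142, edgeR). Ndufa5, an accessory subunit of the matrix arm, was at 21.3, 24.8 and 29.0 and 35.5, 30.2 and 36.3 (log2 fold change 0.45 ± 0.15 (SE), adjusted p = 0.163). Ndufv1, the core subunit that binds NADH, was at 59.7, 69.1 and 71.4 and 89.3, 83.2 and 82.8 (log2 fold change 0.36 ± 0.11 (SE), adjusted p = 0.141). In none of the 3 did the groups overlap.

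The 2 lower members were electron-carrying or anchoring subunits. Sdhc, a membrane anchor of complex II, was at 97.1, 86.9 and 103 CPM with nc shRNA and 74.6, 65.4 and 67.9 with P16 shRNA (log2 fold change -0.46 ± 0.11 (SE), adjusted p = 0.0909, edgeR). Ndufv2, an iron-sulfur subunit next to Ndufv1 in complex I, was at 61.2, 55.5 and 55.8 and 50.8, 40.2 and 48.7 (log2 fold change -0.30 ± 0.12 (SE), adjusted p = 0.230). Within complex II the signs differed, with Sdhd higher (log2 fold change 0.34, adjusted p = 0.231, edgeR), Sdha at 0.29 (adjusted p = 0.281) and Sdhb at -0.19 (adjusted p = 0.397).

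By complex, the median log2 fold change was 0.21 for complex I, 0.15 for its assembly factors, 0.05 for complex II, 0.27 for complex III, 0.04 for complex IV and 0.20 for complex V. Complex IV, with 0 members past p in either direction, had 9 of 15 positive values. Cox5a and Cox4i1, 2 of its subunits, were at -0.15 and -0.12 (adjusted p = 0.412 and 0.501, edgeR). The catalytic pair of complex V, Atp5a1 and Atp5b, was at 0.20 and 0.21 (adjusted p = 0.339 and 0.340).

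The 12 mt- genes tested had a median of -0.17, and -0.24 over the 7 outside the copied stretch, all 7 negative. None passed p under 0.05, with edgeR or DESeq2. mt-Co1 was at 9608, 5720.1 and 6584 CPM with nc shRNA and 7181, 5643 and 6338 with P16 shRNA, where library 1 was the highest of both groups (log2 fold change -0.19 ± 0.21 (SE), adjusted p = 0.679, edgeR). Without nc shRNA library 1, the library with the fewest counts, the median of the 12 was 0.01. That of the nuclear members was 0.11, with 9 higher and 2 lower. Without P16 shRNA library 1, 3 were higher and 2 lower, without library 3, 5 and 1, and without nc shRNA library 2, 7 and 1.

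Libraries with the same number deviated together, and with the number as a replicate block 26 nuclear members were higher and 2 lower at p under 0.05, beside 16.8% and 17.1% of all genes. In all, 7 passed an adjusted p under 0.05 (beside 18.8% of all genes), with Sdhc lower (adjusted p = 0.0110, edgeR) and Ndufa6 (0.0263), Uqcr10 (0.0281), Ndufa5 (0.0330), Ndufb4 (0.0338), Ndufv1 (0.0410) and the complex V stalk subunit Atp5pb (0.0487) higher. In that fit 4 mt- genes, mt-Nd2, mt-Nd5, mt-Nd6 and mt-Cytb, were lower at an unadjusted p under 0.05, beside the same 17.1% of all genes, and 0 at the adjusted one.

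With P16 in Cd31+ cells, nuclear members again leaned upward. Of 90 tested, 87 had a positive log2 fold change, with a median of 0.28 against 0.01 over all genes. In total 7 were higher at an unadjusted p under 0.05, beside 1.45% of all genes, and 0 were lower. None passed the adjusted threshold with edgeR or DESeq2, and DESeq2 also gave 7 and 0 at the unadjusted one. In 13 members the groups did not overlap, with P16 higher, as in 4.61% of all genes. The endothelial markers summed to 465 to 1678 CPM with the empty vector and 844 to 2107 with P16, and the mesenchymal ones to 18561 to 35605 and 18056 to 28796, and their part was not tested. The medians of complexes I, III, IV and V were 0.29, 0.23, 0.33 and 0.35.

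Ndufb2, an accessory subunit of complex I at a low level, was at 3.76, 3.34 and 4.87 CPM with the empty vector and 7.34, 5.74 and 8.47 with P16 (log2 fold change 0.85 ± 0.26 (SE), adjusted p = 0.947, edgeR). Atp5o (ENSMUSG00000022956), the stalk subunit OSCP of complex V, had means of 59.7 ± 4.99 and 85.1 ± 16.6 CPM (SD, n = 3; log2 fold change 0.52 ± 0.17 (SE)). It shares sequence with other annotated transcripts (41.6% of its runs of 50 bases), so its level is uncertain. This limit is not particular to Atp5o, since 23 of the 97 nuclear members, Ndufb4 (18.3%) among them, shared at least 10%. Ndufb4 was at 29.5, 25.3 and 32.6 and 48.9, 35.6 and 38.8 (log2 fold change 0.50 ± 0.17 (SE), adjusted p = 0.947, edgeR).

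Cox6a1, a structural subunit of complex IV, was at 188, 168 and 210.3 CPM and 308, 227 and 250.4 (log2 fold change 0.48 ± 0.16 (SE)), and Ndufa11, which stabilises the membrane arm of complex I, at 33.9, 26.6 and 37.7 and 65.6, 38.0 and 52.7 (log2 fold change 0.67 ± 0.23 (SE)). In each of these 5 genes the groups did not overlap, and P16 library 2 held the highest value in all of them except Ndufb2. Without P16 library 2 only 1 member was higher at p under 0.05 and the median was 0.10, and without P16 library 3 there were 28 and 0.40. The count was 0 without empty vector library 2 and 2 without empty vector library 1. With the replicate block, 31 nuclear members were higher, beside 3.73% of all genes, and Ndufa11 and Ndufa3, both of complex I, passed the adjusted threshold (adjusted p = 0.0185 and 0.0257, edgeR; 0.632% of all genes). Only numbers 2 and 5 occur with both constructs here, so this block rests on 2 pairs and left 1 residual degree of freedom per gene.

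The 3 mt- genes that were lower with P16 at p under 0.05, beside 2.29% of all genes, all belonged to the copied stretch. mt-Co2, a core subunit of complex IV, was at 40.7, 35.6 and 50.01 CPM with the empty vector and 14.8, 22.2 and 11.1 with P16 (log2 fold change -1.39 ± 0.27 (SE), adjusted p = 0.947, edgeR). mt-Co3, of the same complex, was at 25.8, 21.8 and 28.3 and 12.1, 15.6 and 8.74 (log2 fold change -1.05 ± 0.23 (SE)), and mt-Atp6, the membrane subunit of complex V that conducts protons, at 21.1, 16.2 and 33.7 and 10.3, 14.6 and 7.86 (log2 fold change -1.11 ± 0.34 (SE)). The groups did not overlap in any of the 3. With the block, 4 were lower (beside 4.25% of all genes) and these 3 passed the adjusted threshold, mt-Co2 with an adjusted p of 6.73e-10 (edgeR). With DESeq2 1 mt- gene did.

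The mt- genes outside the stretch showed no such difference. Their median was 0.03, 0 of 7 passed p under 0.05 with edgeR, with DESeq2 or with the block, and mt-Co1, mt-Cytb and mt-Nd1 were at 0.04, 0.03 and 0.09 (adjusted p = 0.987, 0.992 and 0.967, edgeR). The lower counts of mt-Co2, mt-Co3 and mt-Atp6 and those of the chromosome 1 copies fell in the same libraries, and a change of the mitochondrial transcripts and a change of the copies cannot be told apart.

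**Figure D3:**
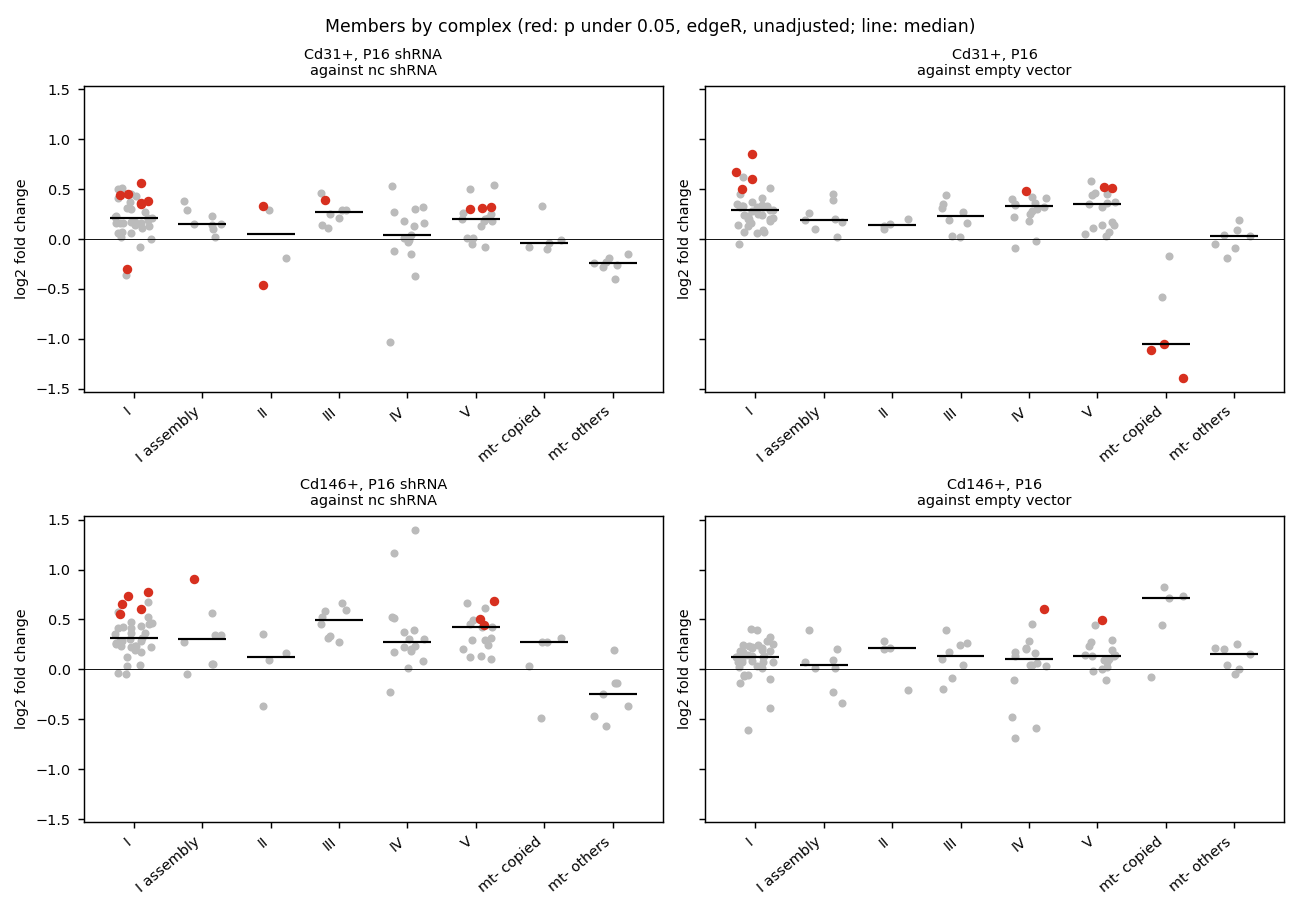
Log2 fold change of each member tested, by nuclear complex and, for the mt- genes, by position in the copied stretch, in the 4 contrasts. Lines are medians and red points have an unadjusted p under 0.05. Medians of complexes I, III, IV and V lie above 0 in all 4 contrasts, and the 3 red mt- genes, all in the copied stretch, appear in Cd31+ cells with P16.

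With P16 shRNA in Cd146+ cells, 85 of 90 nuclear members tested had a positive log2 fold change, with a median of 0.32 against 0.03 over all genes. In total 9 were higher at an unadjusted p under 0.05, beside 5.44% of all genes, and 0 lower, beside 6.18%. None passed the adjusted threshold with edgeR or DESeq2. DESeq2 gave 13 higher at p under 0.05, for which the share of all genes is not given here. In 25 the groups did not overlap, as in 10.5% of all genes. The endothelial markers summed to 336 to 1671 CPM with nc shRNA and 303 to 1654 with P16 shRNA, and the mesenchymal ones to 11028 to 27438 and 25544 to 31832, and their part was not tested. Complex III had the largest median (0.49), then complex V (0.42), complex I (0.31) and complex IV (0.27).

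Ndufb1, a small accessory subunit of complex I, was at 20.9, 24.1 and 28.2 CPM with nc shRNA and 36.8, 34.7 and 53.5 with P16 shRNA (log2 fold change 0.78 ± 0.23 (SE), adjusted p = 0.384, edgeR). Ndufa5 was at 27.2, 40.04 and 35.8 and 57.8, 46.0 and 67.3 (log2 fold change 0.73 ± 0.22 (SE), adjusted p = 0.384). Atp5mpl, a small membrane subunit of complex V, was at 41.3, 50.4 and 50.1 and 65.0, 63.8 and 98.5 (log2 fold change 0.68 ± 0.23 (SE), adjusted p = 0.401). In each, the groups did not overlap and P16 shRNA library 6 was the highest. The 5 genes Ndufb4, Ndufa5, Ndufb1, Ndufb9 and Atp5pb were higher with P16 shRNA at p under 0.05 in both populations, 45.5% of the 11 of Cd31+ cells and 55.6% of the 9 of Cd146+ cells. Taken singly, 9.51% and 5.44% of all genes were higher in these contrasts. The share of all genes higher in both is not given here, so this overlap has no base level. Sdhc, lower in Cd31+ cells, was at 128, 116 and 107 CPM with nc shRNA and 72.6, 90.2 and 109 with P16 shRNA, where the groups overlapped (log2 fold change -0.37 ± 0.20 (SE), adjusted p = 0.486, edgeR).

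The values depended on single libraries. Without P16 shRNA library 6 the median was 0.13 with 4 higher and 1 lower, and 1 was higher without nc shRNA library 1. The count was 5 without nc shRNA library 3 and 17 without P16 shRNA library 3. Without both libraries numbered 3, in which most but not all endothelial markers were low, 10 were higher with a median of 0.42. The share of all genes in that fit is not given here. With the replicate block over the 6 libraries the median was 0.11, with 7 higher and 2 lower. Over the 12 Cd146+ libraries it was 0.11, with 14 higher, beside 13.5% of all genes, and 2 lower. The shares of all genes higher in the block over the 6, and lower in either block, are not given here. Libraries 1 and 6 have no partner of the same number here, so the block over the 6 rests on the pairs 3 and 5.

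Of the 12 mt- genes tested, 5 had a positive value, the median was -0.13 (-0.25 outside the copied stretch) and 0 passed p under 0.05 with edgeR or DESeq2. mt-Co1 was at 8303, 5263 and 4813 CPM with nc shRNA, where library 1 stood above the others, and at 5279.9, 5477 and 4722 with P16 shRNA (log2 fold change -0.25 ± 0.26 (SE), adjusted p = 0.706, edgeR). Without nc shRNA library 1 the median of the mt- genes was 0.12.

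**Figure D4:**
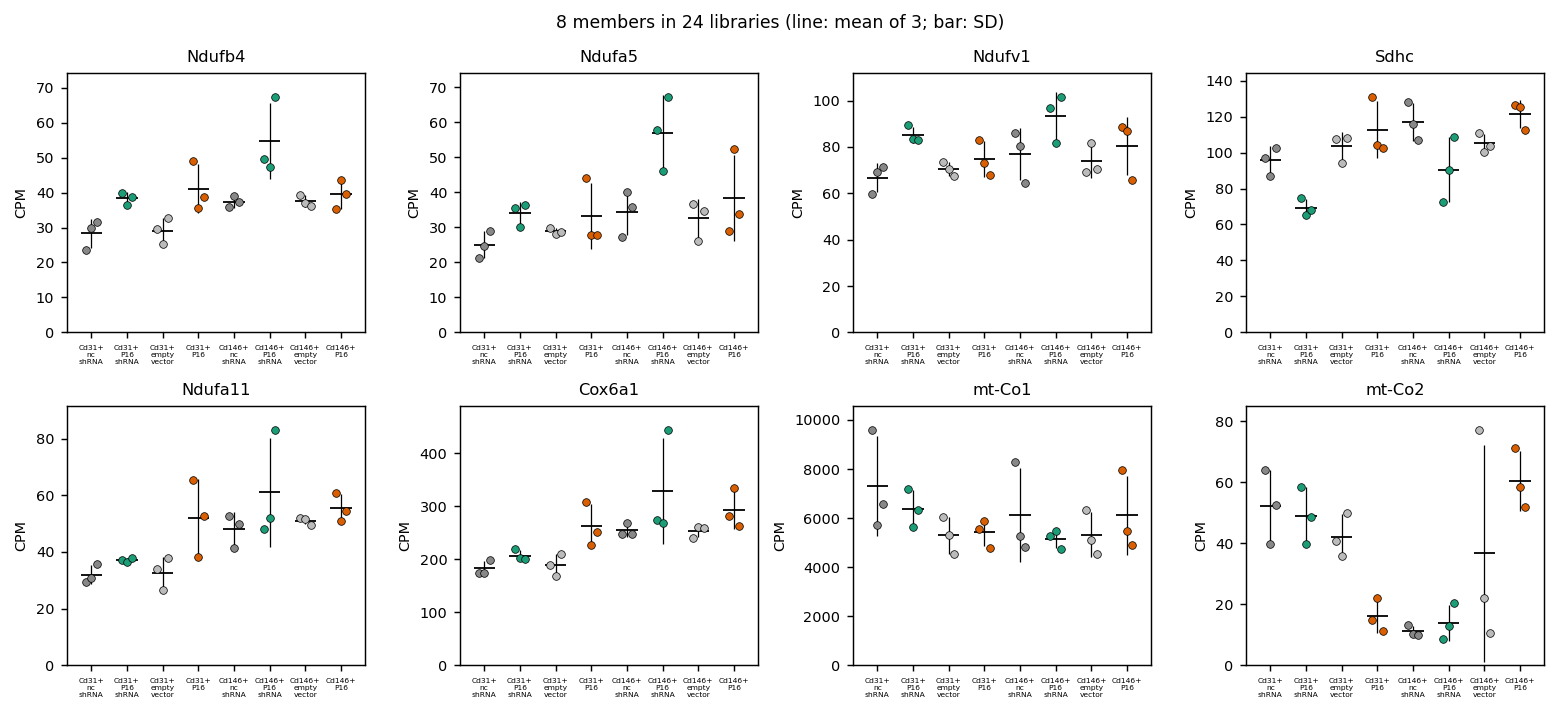
CPM of 8 members in 24 libraries by group, each panel from 0 with its own scale. Points are libraries, lines means of 3 and bars the SD. In Cd31+ cells the P16 shRNA libraries lie above all nc shRNA ones for Ndufb4, Ndufa5 and Ndufv1 and below them for Sdhc, and mt-Co2 is low in Cd31+ cells with P16 and in Cd146+ cells with either hairpin.

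With P16 in Cd146+ cells, the fewest members passed the test. The median log2 fold change of the nuclear members was 0.13 against -0.00 over all genes, with 72 of 90 positive. Only 2 were higher at an unadjusted p under 0.05, beside 1.55% of all genes, and 0 were lower, beside 1.99%. None passed the adjusted threshold with edgeR or DESeq2, and DESeq2 gave 2 at the unadjusted one. The groups did not overlap, with P16 higher, in 8 members, as in 3.66% of all genes. Cox8a, a small subunit of complex IV, was at 176, 163 and 199.7 CPM with the empty vector and 331, 281 and 206 with P16 (log2 fold change 0.60 ± 0.21 (SE), adjusted p = 0.986, edgeR). Atp5h, a stalk subunit of complex V, was at 109.9, 98.3 and 100.1 and 177, 140.0 and 118 (log2 fold change 0.50 ± 0.18 (SE), adjusted p = 0.986). No nuclear member had a p under 0.05 when P16 library 1 or 3 or empty vector library 2 or 4 was left out. Without P16 library 3 the median was 0.02. Leaving out P16 library 5 gave 4 higher and 2 lower, leaving out empty vector library 5 gave 1 higher, and 0 passed with a term for Y-linked transcripts.

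The mt- genes had a median of 0.21 (0.15 outside the copied stretch), and 0 of 12 passed p under 0.05 with edgeR or DESeq2. Without empty vector library 2, 2 were higher. Without P16 library 1 the median was -0.08. In the copied stretch the 3 libraries with the empty vector were far apart, with mt-Co2 at 77.2, 22.1 and 10.7 CPM (numbers 2, 4 and 5) against 71.2, 58.4 and 51.9 with P16. With the replicate block over the 12 Cd146+ libraries, where the empty vector rests on library 5 alone, 4 mt- genes were higher, beside 1.06% of all genes, all in the copied stretch, and 0 nuclear members were. mt-Co2 then had an adjusted p of 0.0380 (edgeR).

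A set of 10 subunits was read across the contrasts, 2 of each complex (Ndufs1, Ndufv1, Sdha, Sdhb, Uqcrc1, Uqcrfs1, Cox4i1, Cox5a, Atp5a1 and Atp5b). Those of complex IV are nuclear subunits around a core that the mitochondrial genome encodes. The 10 had medians of 0.15, 0.13, 0.21 and 0.11 in the order given above, each below the median of all nuclear members, and 1 value of the 40, Ndufv1 in Cd31+ cells with P16 shRNA, had a p under 0.05. Ndufs1, the iron-sulfur core subunit of complex I, lay between -0.05 and 0.06 in all 4. By length, the tested nuclear members under 1000 bases had medians of 0.29, 0.33, 0.42 and 0.20 and the longer ones 0.17, 0.24, 0.31 and 0.11. For all genes, those under 1000 bases had medians of 0.06, 0.02, 0.24 and 0.11. Members with the NRF1 letters in a window had medians of 0.24, 0.31, 0.35 and 0.16, and those without 0.16, 0.30, 0.29 and 0.13. These are descriptions without a test, and members are not replicates.

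No difference between the populations in the effect of silencing was detected without the block. Of the 104 members tested, 0 had a p under 0.05 for the difference, with edgeR or DESeq2, and 1 with the replicate block. For overexpression 3 had an unadjusted p under 0.05 with either tool, and 4 with the block. The shares of all genes for these differences are not given here. mt-Co2 differed by 2.11 ± 0.68 (SE, log2, Cd146+ minus Cd31+, adjusted p = 0.989, edgeR), mt-Co3 by 1.88 ± 0.63 and the assembly factor Ndufaf5 by -0.62 ± 0.29. The chromosome 1 copies split the same libraries.

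The populations themselves differed in the nuclear members. In the 12 libraries with control constructs, 41 of 92 nuclear members tested were higher in Cd146+ cells at an unadjusted p under 0.05, beside 8.34% of all genes, and 0 were lower, beside 9.12%. The median log2 difference was 0.25 against 0.02 over all genes. No member passed the adjusted threshold with edgeR, and 15 did with DESeq2 (4.19% of all genes). Ndufa11 was at 29.5, 30.8 and 35.7 CPM with nc shRNA and 33.9, 26.6 and 37.7 with the empty vector in Cd31+ cells, and at 52.7, 41.2 and 49.96 and 52.0, 51.6 and 49.5 in Cd146+ cells (log2 fold change 0.61 ± 0.10 (SE), adjusted p = 0.0960, edgeR). Cox6a1 had means of 186 ± 16.6 CPM in Cd31+ and 254 ± 10.2 in Cd146+ cells (SD, n = 6; log2 fold change 0.45 ± 0.08 (SE)), and Ndufb2 4.07 ± 0.631 and 7.52 ± 1.54 (log2 fold change 0.88 ± 0.17 (SE)). None of the 3 overlapped between the populations.

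Complex I gave 20 of 37, complex IV 9 of 18, complex V 8 of 17, the assembly factors 2 of 8, and complexes II and III 1 each of 4 and 8. The 10 subunits read across the contrasts had a median of 0.03, with 2 past p. Y-linked transcripts were present in 5 of the 6 Cd31+ and 3 of the 6 Cd146+ control libraries, and with a term for them 35 members were higher. Without the Cd146+ libraries nc shRNA 3 and empty vector 4 there were 42. The shares of all genes are not given here for the fit with this term or the fit without these libraries. The 6 and 6 libraries stand for 4 and 5 replicate numbers, since a number can occur with both controls. With the counts of each number summed, 30 of 90 nuclear members were higher, beside 4.32% of all genes, 0 were lower, and the median was 0.21. The cells were isolated with different beads, and other differences of isolation and population cannot be told apart.

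**Figure D5:**
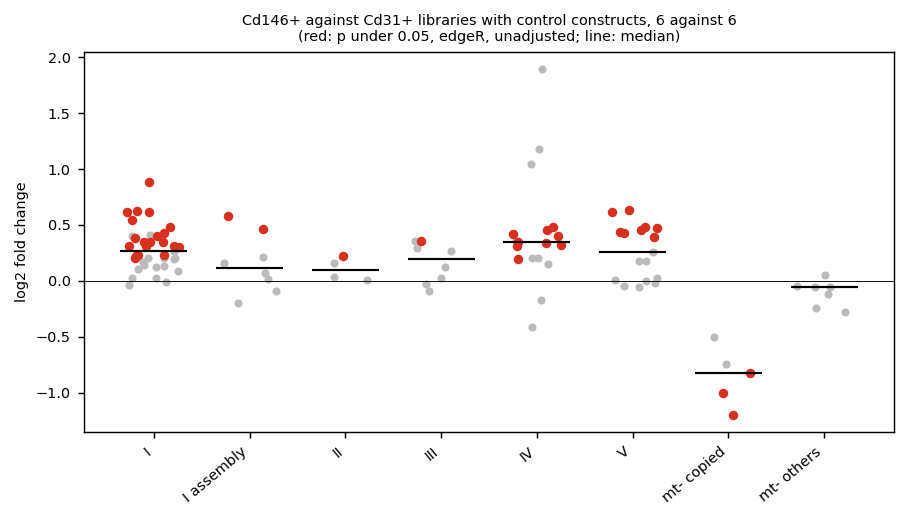
Log2 difference between Cd146+ and Cd31+ cells for each member tested, over 6 and 6 libraries with control constructs, by complex. Lines are medians and red points have an unadjusted p under 0.05. All 41 red nuclear members lie above 0, and the 3 red mt- genes, below 0, are all in the copied stretch.

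The mt- genes did not follow. Their median difference was -0.26 and -0.06 outside the copied stretch, where 0 of 7 passed p under 0.05 with edgeR or DESeq2. The 3 that did were mt-Nd4l, mt-Co3 and mt-Co2 (adjusted p = 0.234, 0.252 and 0.263, edgeR), and their groups overlapped. With the counts of each number summed, 0 of 12 passed. Without nc shRNA library 5 of Cd146+ cells 0 passed too, and without nc shRNA libraries 1 or 3 or empty vector library 5 of these cells, or nc shRNA library 3 of Cd31+ cells, 1 did. Without nc shRNA library 1 or 2 of Cd31+ cells 2 did. Without empty vector library 2 of Cd146+ cells 3 were lower, mt-Co2 and mt-Co3 of them at an adjusted p under 0.05 (edgeR).

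The 2 controls could also be compared. In Cd31+ cells nc shRNA was above the empty vector in all 12 mt- genes tested, with a median of 0.46, and 4 passed p under 0.05, beside 1.43% of all genes. mt-Nd2, a membrane subunit of complex I, was at 932, 728 and 780.2 CPM with the empty vector and 1853, 977 and 1228 with nc shRNA (log2 fold change 0.74 ± 0.24 (SE), adjusted p = 0.992, edgeR), without overlap. With the replicate block 10 passed, beside 5.69% of all genes, 6 of them at an adjusted p under 0.05, and mt-Nd2 had an adjusted p of 4.87e-05 (edgeR). The nuclear members had a median of -0.07 with 0 past p with edgeR or DESeq2, and 2 higher and 19 lower with the block, beside 5.69% and 7.37% of all genes. This block rests on 2 pairs, numbers 1 and 2, with 1 residual degree of freedom per gene. When 1 library was left out, 0 passed without empty vector library 2, 1 without empty vector library 5 or nc shRNA library 1 or 3, 2 without empty vector library 1 and 7 without nc shRNA library 2, where the median was 0.61. In Cd146+ cells the medians of this comparison were 0.08 for the mt- and 0.02 for the nuclear genes.

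Other genes of mitochondrial and related metabolism were counted by the same threshold. The shares of all genes higher and lower at p under 0.05, against which the counts stand, were 9.51% and 10.3% with P16 shRNA and 1.45% and 2.29% with P16 in Cd31+ cells, 5.44% and 6.18% with P16 shRNA and 1.55% and 1.99% with P16 in Cd146+ cells, and 8.34% and 9.12% between the populations. With P16 shRNA in Cd31+ cells, 4 of 18 electron carriers and assembly genes tested were higher and 1 lower at p under 0.05, led by Coq7 and Coq9 of ubiquinone synthesis (log2 fold change 0.56 and 0.39, adjusted p = 0.0977 and 0.106, edgeR). Of 17 citric acid cycle genes 2 were higher and 1 lower. Suclg1, of succinyl-CoA ligase, was at 0.34 (adjusted p = 0.138) and Pdha1, of pyruvate dehydrogenase, at -0.35 (adjusted p = 0.159). In Cd146+ cells the same pair led the list, Suclg1 with 0.56 (adjusted p = 0.408) and Pdha1 with -0.72 (adjusted p = 0.384), and 4 of 18 electron carriers and assembly genes were higher, among them cytochrome c, Cycs (0.67, adjusted p = 0.398). None of these passed an adjusted p under 0.05.

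A list of 12 genes of oxidant defence was read, not all of them mitochondrial, such as catalase (Cat) and Sod1. In Cd31+ cells with P16 shRNA, 4 were higher (beside 9.51% of all genes) and 1, Cat, lower, and with P16 2 were higher. In Cd146+ cells 1 was higher with P16 shRNA and 0 with P16. The thioredoxin Txn2 was higher with P16 shRNA in both populations (0.30 and 0.62, adjusted p = 0.140 and 0.390, edgeR). In the comparison of the populations 6 of the 12 were higher in Cd146+ cells (beside 8.34% of all genes), led by the peroxidases Gpx1 (0.69, adjusted p = 0.145) and Prdx5 (0.68, adjusted p = 0.179).

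Among 23 tested regulators and genes of mitochondrial gene expression, 1 higher and 1 lower, 0 and 1, 3 and 1, and 1 and 0 passed in the 4 contrasts in the order above, with medians between -0.10 and 0.04. Fastkd2, which acts on mitochondrial RNA, was lower with P16 shRNA and with P16 in Cd31+ cells (-0.56 and -0.36, adjusted p = 0.172 and 0.947, edgeR), and in Cd146+ cells with P16 shRNA Slirp, which stabilises mitochondrial mRNA, was higher (1.40, adjusted p = 0.382) and the mitochondrial DNA polymerase Polg lower (-0.51, adjusted p = 0.384). Between the populations 5 of the 23 were lower in Cd146+ cells (beside 9.12% of all genes) and 0 higher, among them the coactivator Pprc1 (-0.33, adjusted p = 0.210) and the RNA-binding factor Lrpprc (-0.24, adjusted p = 0.210). Of 16 glycolysis genes, 3 were higher and 2 lower with P16 shRNA in Cd31+ cells, with Hk2 at 0.63 (adjusted p = 0.119). With P16 shRNA in Cd146+ cells 1 was higher and 1 lower, with Hk1 at -0.59 (adjusted p = 0.384) and Ldha at 0.65 (adjusted p = 0.428). With P16, 0 were higher and 0 lower in Cd31+ cells. In Cd146+ cells with P16, 1 was higher and 0 lower. It was Gapdh, at 2.82 (adjusted p = 0.986, edgeR), where the groups overlapped.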

How the data were processed

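RNA sequencing of 24 libraries was used. The values are, as deposited by the authors, raw read counts per gene. The labels name fastp and the build mm9, and the aligner and counter are not given in the sources used here. In the table, 13 of 13 mt- genes had the coordinates of GENCODE M21 (GRCm38) and 3 of 97 nuclear ones, so coordinates of nuclear genes were not taken from it. The authors' FPKM columns and the fold changes and p-values of their own comparisons were not used. Gene length, deposited by the authors as another column, was used for levels per kilobase. The labels do not give the meaning of the replicate numbers.

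Counts were analysed with edgeR 4.0.16 in R 4.3.3: filterByExpr, TMM, robust quasi-likelihood fit and two-sided test over the 6 libraries of 2 groups, Benjamini-Hochberg adjustment over all genes tested. Populations were compared in the 12 control libraries with a term for the construct, and effects over all 24 libraries. The SE of a log2 fold change is its absolute value divided by the square root of the F statistic of the test. CPM are TMM-normalized over 24 libraries. A count of 3, taken as the floor, was 0.113 to 0.195 CPM, and covers counting error only. Within a population, libraries of the same number and different construct correlated after group means were removed (lowest r 0.360 over 13 pairs in Cd31+ and 0.350 over 10 in Cd146+ cells), so the numbers were taken to pair libraries. No 2 libraries of a group agreed within sampling noise (lowest chi-square per degree of freedom 39.7).

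Members and lists were chosen with earlier results of these data known. Genes named were all mt- genes, in each contrast the 3 nuclear members of smallest p in each direction under 0.05 and those past adjusted p, 10 subunits of the 5 complexes, tissue isoforms, the extremes of level of each complex, the 2 genes of smallest p of each pathway list, and the 3 of smallest p between the populations. The members of the replicate-block counts, Ndufa4l2 by library and the genes shared by both silencing contrasts were chosen after their values were seen. Alternatives were other low-count filters (at least 1 count, or a mean of at least 10) and DESeq2 1.42.0 (size factors and Wald test). Library totals and scaling without mt- rows were also used. Others were a shared spread over the 12 libraries of each population, the replicate block and each library left out. Fits without the libraries that stood apart and fits with a term for Y-linked transcripts were added after seeing the data. So were summaries over the 7 mt- genes outside the copied stretch and, between the populations, a fit with control libraries of the same number summed. Sequences came from GENCODE M21 transcripts and RefSeq promoter windows.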

Additional observations from a re-analysis of the deposited data

Results flagged for a closer look

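The effect of P16 against the empty vector differed between the populations in 3 members when the replicate number was a block within each population. The difference in log2 fold change, Cd146+ minus Cd31+, was 3.84 for mt-Co2 (adjusted p = 0.00232, edgeR), 3.06 for mt-Co3 (adjusted p = 0.0181) and 2.83 for mt-Atp6 (adjusted p = 0.0321). Without the block the adjusted p was 0.989. All 3 lie in the stretch that is copied on chromosome 1, whose copies split the same libraries, and in this fit the Cd146+ empty vector rests on library 5.

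Reads on the mitochondrial ribosomal RNAs, which are no members, were present in every library although poly(A) RNA was sequenced. The median over 24 libraries was 3343 counts for mt-Rnr1 and 8453 for mt-Rnr2, above the floor of 3 counts. mt-Rnr1 ranged from 303 to 6321 counts and mt-Rnr2 from 1457 to 14907, and the lowest of both was in Cd31+ cells with nc shRNA, in library 1, where the mt- protein-coding share was the highest.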

How the results depend on the processing

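The direction of the nuclear medians did not change under any alternative run, and the counts of members at an unadjusted p under 0.05 did. Keeping all genes with at least 1 count moved the nuclear counts from 13 to 26 (P16 shRNA, Cd31+ cells), from 7 to 19 (P16, Cd31+ cells) and from 9 to 17 (P16 shRNA, Cd146+ cells), and the mt- count with P16 shRNA in Cd31+ cells from 0 to 1. With the spread shared over the 12 libraries of a population the counts were 20 (P16, Cd31+ cells), 23 (P16 shRNA, Cd146+ cells) and 1 in place of 2 (P16, Cd146+ cells). The shares of all genes called under these settings are not given here, so a larger count need not be a larger excess of members. The same holds for the block over the 12 Cd31+ libraries and for the fits with a library left out.

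With the replicate block in the 6 libraries compared, the nuclear counts were 28 and 31 for P16 shRNA and P16 in Cd31+ cells, and the mt- count with P16 shRNA was 4. With the replicate block over 12 libraries, the nuclear counts were 25 (P16, Cd31+ cells), 16 (P16 shRNA, Cd146+ cells) and 0 (P16, Cd146+ cells), and the mt- counts 2 (P16 shRNA, Cd31+ cells), 5 in place of 3 (P16, Cd31+ cells) and 4 in place of 0 (P16, Cd146+ cells). In the last, mt-Atp6 turned from -0.08 to 1.61 on the log2 scale. A block within the 6 Cd146+ libraries with P16 or its empty vector could not be fitted, since they share 1 number. The difference of the silencing effects gave 1 member in place of 0 with the block. With a term for Y-linked transcripts the 2 nuclear members of Cd146+ cells with P16 became 0.

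Leaving out 1 library at a time gave 5 to 12 nuclear members and 0 to 1 mt- genes (P16 shRNA, Cd31+ cells), 0 to 28 nuclear members (P16, Cd31+ cells), 1 to 17 (P16 shRNA, Cd146+ cells), and 0 to 6 nuclear members and 0 to 2 mt- genes (P16, Cd146+ cells). Which of the settings is closer to the truth was not tested. Levels of mt-Atp8, at 0 to 11 counts, and of the 5 nuclear members with a median of 0 are limited by depth.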
